A study of Mus musculus with 12 samples.

Results

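Histones are the proteins around which DNA is wound, and the array named 25 of their genes, of 18193 genes with a probe set of their own. The rule took every probe set whose single platform symbol begins with H1f, H2a, H2b, H3c, H3f, H4c, H4f or the older Hist1 to Hist4 style of name and continues with letters or digits only. It found 36 probe sets, of 34945 with 1 gene symbol and 45101 on the array, and the rule reads symbols only. By symbol, 15 probe sets of 10 genes were replication-dependent histones, 12 of 8 genes were variants and 9 of 7 genes were germline histones. The variant class took every member not placed in another class, H2bfm among them. No probe set with a single symbol named an H4 gene.

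Replication-dependent histone genes lie in clusters and are transcribed mainly while a cell copies its DNA, when the new chromatin needs H1, H2A, H2B, H3 and H4 together. Most of their messages lack introns and end in a stem-loop bound by SLBP instead of a poly(A) tail. Variant histones, such as H2A.Z and H3.3, are made through the whole cell cycle from separate, polyadenylated messages and are placed into chromatin by their own chaperones. H2A.X, whose message ends either with or without poly(A), is counted with the variants here. Myeloid progenitors divide often before their descendants leave the cell cycle.

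The 12 arrays measured messenger RNA from cells of control mice and of mice lacking Stat5a and Stat5b in blood cells, each without and with a treatment, in 4 groups of 3 arrays. The series concerns the part STAT5 plays in granulocyte formation under the cytokine GM-CSF. The treatment is labelled only as with or without GMP, letters that also appear in the names of untreated arrays, so the agent, its dose and its time are not taken as known, and the word treatment is used here. Mouse strain, age, the means of deletion and the number of animals behind an array are not given in the sources used here, so p-values measure the spread between these samples, which may be technical. Each of 3 array dates held 1 array of every group. On date 2 the knockout treated array carried another number tag in its title than the other 3 arrays, and what the tag marks is not stated.

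Stat5a signals were 375 to 1150 on control arrays and 26.7 to 101 on knockout arrays, and Stat5b signals 287 to 1530 and 1.8 to 60.5. All 6 granulocyte-macrophage progenitor markers, Mpo, Elane, Prtn3, Csf2ra, Kit and Cd34, were above the median of all values on all 12 arrays, with lowest signals of 15309, 6216, 11692, 468, 623 and 491. The signal near the 3′ end of Actb over that near its 5′ end, which rises where the labelled RNA is short, was 20.8 to 266 on date 2 and 1.14 to 2.05 on dates 1 and 3. For Gapdh it was 28.2 to 80.7 and 1.56 to 3.9. In control cells the treated array had the higher ratio on each date. For Actb it was 2.05, 266 and 1.46 treated against 1.22, 59.5 and 1.28 untreated. For Gapdh it was 3.9, 80.7 and 2.82 against 1.89, 59.9 and 1.87. In knockout cells the treated array had the higher ratio on date 1 and the lower one on dates 2 and 3, for both genes. The part of RNA quality in the treatment changes was not tested.

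Of the 36 histone probe sets 24 were tested, which meant a signal over 70.5495 (the median of all values) on 3 arrays or more of the 12. They were 13 replication-dependent probe sets of 9 genes and 11 variant probe sets of 7 genes. The other 12 were dim, with 5 of 144 values above that median and a range of 0.433 to 134. They held all 9 germline probe sets (H1f6, H1f7, H1f8, H2al2a, H2al3, H2ap and H2bl1, with signals from 0.433 to 87.4), 1 probe set each of H1f2 and H1f4, and H2bfm.

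Promoter sequences from RefSeq (build GRCm38.p6) were available for 13 of the 16 tested genes. They are shown for 5 genes of which a probe set fell after treatment, and for H2az1, which encodes H2A.Z and had no call. Each line gives the 250 bases before the start site, 5′ to 3′ on the gene's strand, for H3c4 at chr13:23575513-23575762 (plus strand), H3c11 at chr13:21783398-21783647 (minus), H1f2 at chr13:23738557-23738806 (plus), H2ac19 at chr3:96240375-96240624 (minus), H3f3b at chr11:116024505-116024754 (minus) and H2az1 at chr3:137864237-137864486 (plus). Capitals mark the letters CCAAT (of the CCAAT box), TATAAA (of the TATA box) and the octamer ATGCAAAT long known from H2B promoters. They were read on either strand and marked at any position.
H3c4: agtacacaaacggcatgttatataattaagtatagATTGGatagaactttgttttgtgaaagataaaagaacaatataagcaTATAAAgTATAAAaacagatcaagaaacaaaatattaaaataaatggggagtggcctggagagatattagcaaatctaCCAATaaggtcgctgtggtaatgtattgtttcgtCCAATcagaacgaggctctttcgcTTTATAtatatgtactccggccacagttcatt
H3c11: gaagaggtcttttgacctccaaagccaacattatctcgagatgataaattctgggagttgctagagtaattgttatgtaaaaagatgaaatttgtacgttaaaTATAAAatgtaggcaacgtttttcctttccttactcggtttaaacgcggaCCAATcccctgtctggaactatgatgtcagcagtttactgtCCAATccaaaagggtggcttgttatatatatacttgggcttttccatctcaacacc
H1f2: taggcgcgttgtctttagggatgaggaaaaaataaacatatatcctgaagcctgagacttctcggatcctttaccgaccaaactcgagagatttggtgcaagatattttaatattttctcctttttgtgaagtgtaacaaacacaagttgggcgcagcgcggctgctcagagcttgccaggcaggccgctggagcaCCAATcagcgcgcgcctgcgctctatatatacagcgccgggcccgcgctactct
H2ac19: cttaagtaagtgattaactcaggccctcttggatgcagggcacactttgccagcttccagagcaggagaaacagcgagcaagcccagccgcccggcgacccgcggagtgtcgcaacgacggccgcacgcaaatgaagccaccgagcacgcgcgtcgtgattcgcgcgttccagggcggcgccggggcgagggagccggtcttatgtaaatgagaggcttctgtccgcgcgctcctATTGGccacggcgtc
H3f3b: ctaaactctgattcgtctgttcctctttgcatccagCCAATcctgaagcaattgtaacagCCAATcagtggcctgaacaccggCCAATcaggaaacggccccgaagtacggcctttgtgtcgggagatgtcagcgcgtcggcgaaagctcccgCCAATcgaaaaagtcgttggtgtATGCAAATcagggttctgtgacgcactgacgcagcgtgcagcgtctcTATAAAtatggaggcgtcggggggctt
H2az1: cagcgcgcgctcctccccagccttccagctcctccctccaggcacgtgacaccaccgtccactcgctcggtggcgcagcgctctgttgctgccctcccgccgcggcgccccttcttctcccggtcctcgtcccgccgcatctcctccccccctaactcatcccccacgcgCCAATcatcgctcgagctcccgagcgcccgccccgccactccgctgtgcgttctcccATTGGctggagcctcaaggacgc

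These motifs, and 2 more, were searched from 250 bases before to 50 bases after the start site, on both strands, in these promoters and in all 32851 promoters of that length. CCAAT was in 7 of 7 promoters of tested replication-dependent genes and 5 of 6 of variant genes, against 37.4% of all promoters. H3c4 and H3c11 both had it at position -56 and H1f2 at position -54, counted back from the start site. TATAAA was in 3 of 7 and 1 of 6, against 13.6% of all. It lay at positions -168, -161 and -32 in H3c4, -147 in H3c11, -212 in H2bc22 and -27 in H3f3b. Whether any of these matches acts as a TATA box was not tested. H3f3b also held CCAAT at 4 positions, the nearest at -97. ATGCAAAT was in 2 of 7 (H2aw and H2bc18) and 1 of 6 (H3f3b), against 1.74%. Neither TGACGTCA, the cyclic AMP response element (1.79% of all), nor TTCNNNGAA, the letters a STAT5 dimer is known to bind (8.3% of all), occurred in these 13 windows. A match or its absence describes these letters alone.

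The first comparison asks what treatment did in control cells. H3c4, H3c7, H3c11, H2ac19 and H2aw, which encode replication-dependent H3 and H2A, fell, and so did the probe set of the variant gene H3f3b. Another 5 probe sets, shared by H3.3 genes, changed by -0.61 to 0.42 (log2). Called means an adjusted p under 0.05 in limma over all 21363 tested probe sets. Of the 13 replication-dependent probe sets 6 were called lower and 0 higher, and of the 11 variant probe sets 1 was called lower and 0 higher. Of all tested probe sets 1.54% were called lower and 3.16% higher. The median log2 change was -1.25 for the replication-dependent class, -0.19 for the variant class and -0.01 for all tested probe sets.

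The second comparison asks the same in Stat5 knockout cells, which share no array with the first but share its dates and its estimate of the spread. Again 6 of 13 replication-dependent and 1 of 11 variant probe sets were called lower and 0 of either class higher, where 2.89% of all tested probe sets were called lower and 5.77% higher. Median log2 changes were -1.09 for the replication-dependent class, -0.45 for variants and 0.01 for all. Of the 7 probe sets called in each genotype 6 were called in both. They belonged to H3c4, H3c7, H3c11, H2ac19 (2 probe sets) and H3f3b, with H2aw called in control cells and H1f2 in knockout cells alone at this threshold. In bulk RNA, fewer cells that make a message and less of it in each cell cannot be told apart.

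**Figure D1:**
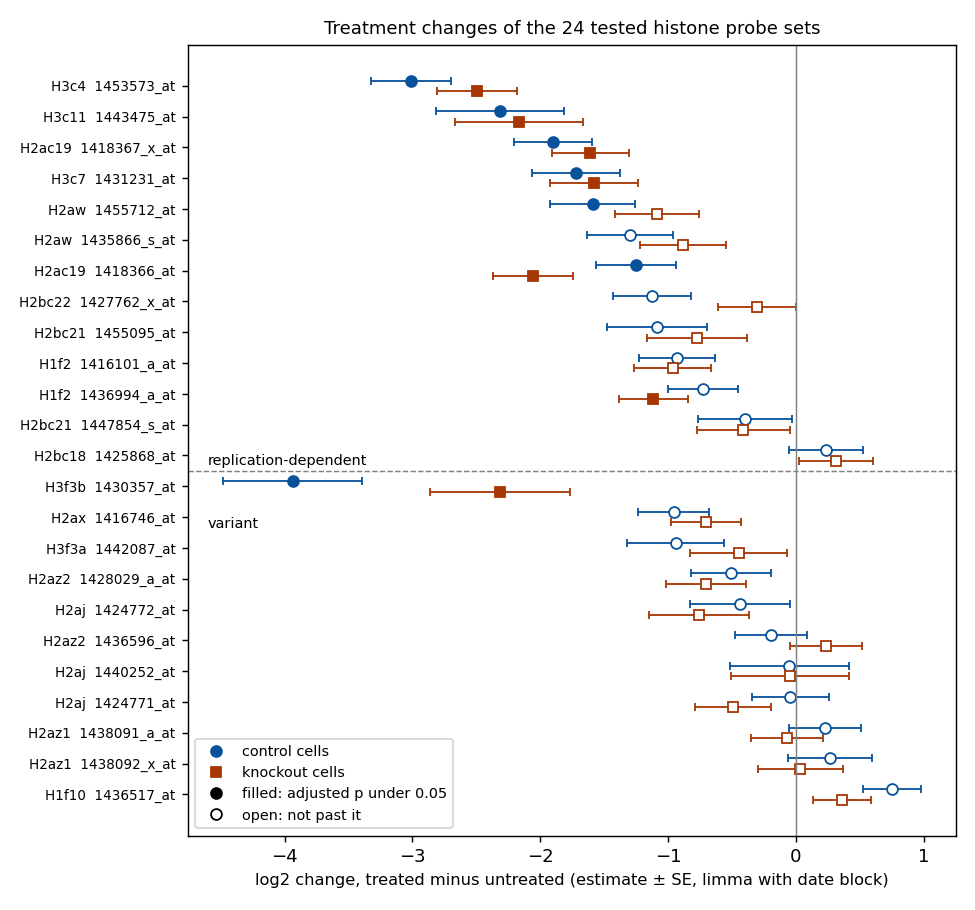
Log2 change with treatment (x axis, estimate ± SE from limma with array date as a block) of the 24 tested histone probe sets (y axis, replication-dependent above the dashed line, variant below), in control cells (blue circles) and knockout cells (brown squares). Filled symbols passed an adjusted p of 0.05. H3f3b (-3.94 and -2.32) stands apart from the other variants, and 12 of 13 replication-dependent estimates lie left of 0 in both genotypes.

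Treated and untreated signals did not overlap, with all 3 treated arrays lower, for 9 of 13 replication-dependent and 2 of 11 variant probe sets in control cells, against 6.37% of all tested probe sets. The counts were 8 of 13 and 3 of 11 in knockout cells, against 8.42%. Paired by date, 12 of 13 replication-dependent and 4 of 11 variant probe sets were lower on all 3 dates in control cells (24.6% of all tested), and 10 of 13 and 5 of 11 in knockout cells (23.8% of all). On dates 1, 2 and 3 the median change of the replication-dependent class was -0.88, -1.59 and -1.30 in control cells and -0.85, -1.47 and -1.10 in knockout cells. For the variant class it was -0.24, 0.11 and -0.25, and -0.03, -0.72 and -0.30. The replication-dependent median was thus the lower one on each date in both genotypes. Probe sets of a gene and near-identical genes of a family share sequence and cells, so these counts are descriptions and not a test of the classes.

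Among the replication-dependent families with a gene-specific probe set, H3 had the lowest median log2 changes, -2.31 in control and -2.17 in knockout cells over 3 probe sets, all 3 called in both. On date 1 in knockout cells the H2A median was the lower one, at -1.25 against -1.11 for H3. An order with H3 lowest does not hold for probe sets shared by several genes. Their medians in control and knockout cells were -0.40 and -0.68 over 5 H3 sets, -1.54 and -1.17 over 3 H2B sets and -1.20 and -0.87 over 4 H4 sets. H3c4 lies in the histone cluster on chromosome 13. Its signal on dates 1, 2 and 3 was 1019, 1204 and 2984 in control untreated, 128, 210 and 215 in control treated, 932, 1405 and 1420 in knockout untreated and 169, 268 and 195 in knockout treated cells. Every treated array lay below every untreated one. It fell by 3.01 ± 0.31 on the log2 scale in control cells (SE, limma adjusted p = 0.00103) and fell by 2.50 ± 0.31 in knockout cells (adjusted p = 0.00183), and it kept both calls in each of 12 fits that left out 1 array.

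H3c11, another H3 cluster gene, had signals of 294, 289 and 453 without and 70.7, 19.3 and 117 with treatment in control cells, and of 306, 388 and 329, and 134, 12.8 and 114, in knockout cells. The treated array of date 2 was the lowest in both genotypes, and at 12.8 it lay under the constant of 13 added before the log, which understates its change. The log2 changes were -2.31 ± 0.50 (limma adjusted p = 0.0306) and -2.17 ± 0.50 (0.0269). They were largest on date 2, at -3.22 and -3.96. Without date 2 the H3c11 estimates were smaller, at -1.86 and -1.27 (limma adjusted p = 0.0126 and 0.0349). H3c7, also an H3 cluster gene, went from 215, 457 and 701 to 58.9, 150 and 168 in control cells and from 249, 698 and 499 to 133, 193 and 107 in knockout cells. Its groups did not overlap, and its changes were -1.72 ± 0.35 (adjusted p = 0.0221) and -1.58 ± 0.35 (0.0222), calls that did not pass without date 2 (0.0542 and 0.0795). In control cells H3c7 lost its call in 6 of the 12 fits without 1 array and H3c11 in 7, each control array among them and, for H3c11, knockout treated replicate 3. In knockout cells each lost it in 5, without any 1 knockout array but treated replicate 1. The highest adjusted p over these fits was 0.121.

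Among the H2A genes, H2ac19 has 2 probe sets. The one marked as cross-hybridizing read 778, 515 and 1079 without and 152, 134 and 349 with treatment in control cells, and 1041, 630 and 1124, and 237, 327 and 307, in knockout cells. It changed by -1.90 ± 0.30 (limma adjusted p = 0.00822) and -1.61 ± 0.30 (adjusted p = 0.0119). Its call failed in control cells without control untreated replicate 3 (adjusted p = 0.0527) and in knockout cells without untreated replicate 1 or treated replicate 3 (at most 0.0588). The other read 462, 226 and 525, then 105, 163 and 205, in control cells, and 504, 420 and 873, then 98.1, 139 and 150, in knockout cells. Its changes were -1.25 ± 0.31 (adjusted p = 0.0493) and -2.06 ± 0.31 (adjusted p = 0.00449). Both sets separated treated from untreated arrays in each genotype. The call of the second set in control cells stood in 3 of 12 fits without 1 array, with an adjusted p of at most 0.191, and failed without replicate 1 or 3 of control untreated, control treated or knockout treated cells or any knockout untreated array. Its call in knockout cells stood in all 12.

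H2aw, an H2A gene outside the large clusters, read 125, 310 and 279 and then 71.2, 76.9 and 49.9 on one probe set in control cells, with no overlap. It fell by 1.59 ± 0.33 (limma adjusted p = 0.0257), a call lost without control untreated or control treated replicate 2 or 3. In knockout cells the signals of this set were 124, 276 and 177, then 89.5, 107 and 50.8, again without overlap, and the difference was -1.09 ± 0.33 (adjusted p = 0.0698). The other H2aw set, whose groups overlapped, differed by -1.30 ± 0.34 (adjusted p = 0.0571) and -0.88 ± 0.34 (0.136). Whether H2aw responded differently between genotypes was tested, and the difference of responses was 0.51 ± 0.47 (adjusted p = 1).

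**Figure D2:**
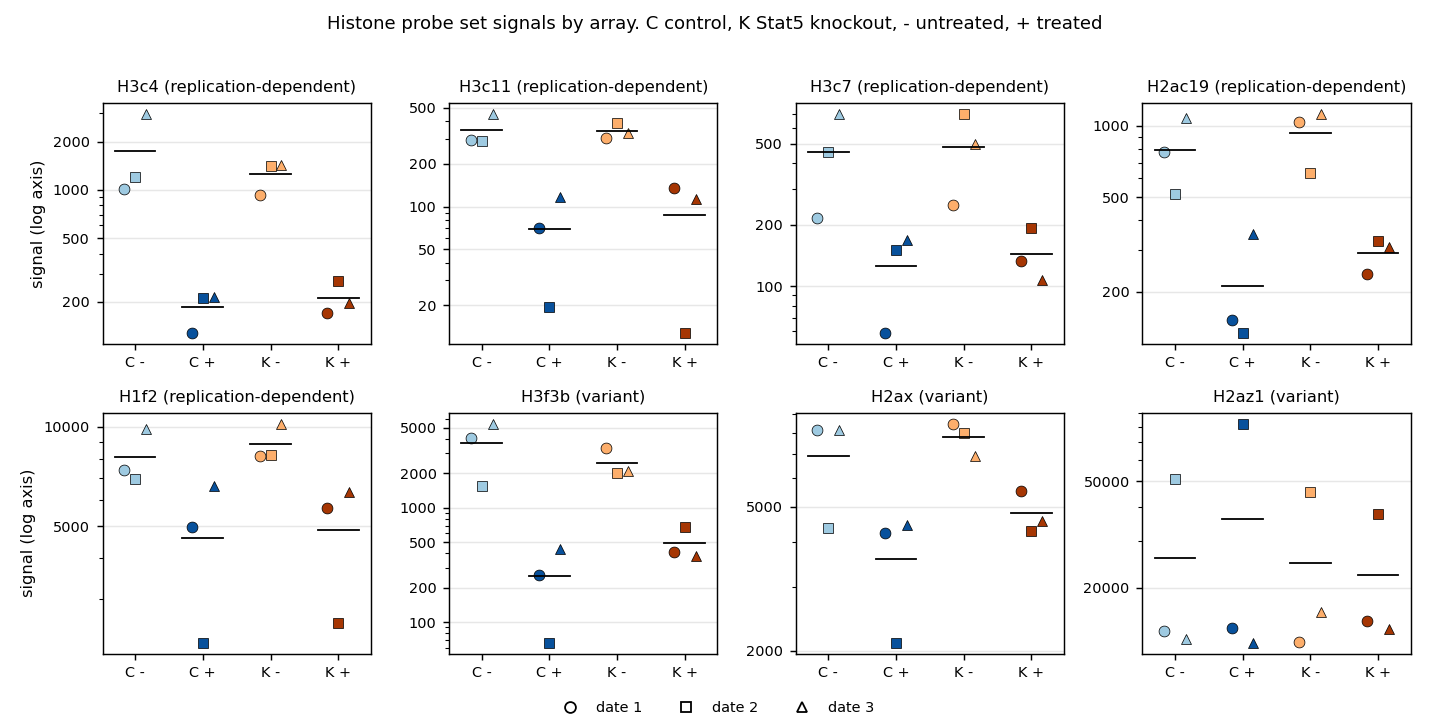
Signal on each array (y axis, log axis, a separate scale in each panel) of 8 histone probe sets in the 4 groups (x axis: C control, K Stat5 knockout, - untreated, + treated), with circles, squares and triangles for dates 1, 2 and 3 and bars for the mean of 3 arrays. For H3c4 every treated array (128 to 268) is below every untreated one (932 to 2984), while for H2az1 the arrays separate by date 2 (37805 to 82057) and not by treatment.

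H1f2 encodes a linker histone, which binds DNA between nucleosomes, and had 2 tested probe sets. One read 2369, 2912 and 3530 without and 1290, 2029 and 2042 with treatment in control cells, and 2279, 2885 and 4065, then 1495, 915 and 1895, in knockout cells. The groups did not overlap in either genotype. Its change was -0.73 ± 0.27 in control cells (limma adjusted p = 0.163) and -1.11 ± 0.27 in knockout cells (adjusted p = 0.0339), and the latter call stood in 4 of 12 fits without 1 array. It failed without replicate 1 or 3 of control untreated, replicate 3 of control treated, any replicate of knockout untreated or replicate 2 or 3 of knockout treated cells (adjusted p at most 0.131). The brighter set read 7405, 6967 and 9847, then 4974, 2217 and 6623, and 8143, 8214 and 10208, then 5672, 2545 and 6333, also without overlap. It differed by -0.93 ± 0.30 (adjusted p = 0.108) and -0.97 ± 0.30 (adjusted p = 0.0757). The difference of responses was -0.39 ± 0.39 for the first set and -0.03 ± 0.42 for the second (adjusted p = 1 for both).

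No H2B probe set was called. Of 4 tested sets, 2 had an unadjusted p under 0.05 in control cells and 0 in knockout cells, against 20.8% and 24.9% of all tested probe sets, and the median change was -0.74 and -0.36. H2bc22 read 149, 154 and 164, then 38.1, 105 and 63.3, in control cells without overlap, and 70, 201 and 83.1, then 85.7, 109 and 61.5, in knockout cells with overlap. It differed by -1.13 ± 0.305 (limma adjusted p = 0.064, and 0.0276 without date 2) and -0.31 ± 0.305 (adjusted p = 0.584). The brightest H2bc21 set read 594, 907 and 460, then 435, 906 and 268, in control cells, and 623, 421 and 576, then 305, 639 and 322, in knockout cells. These groups overlapped, and the differences were -0.40 ± 0.36 and -0.41 ± 0.36 (limma adjusted p = 0.588 and 0.535). The dimmer H2bc21 set differed by -1.09 ± 0.39 and -0.77 ± 0.39 (adjusted p = 0.145 and 0.253). H2bc18, the 1 replication-dependent set with a higher estimate, differed by 0.24 ± 0.29 and 0.31 ± 0.29 (adjusted p = 0.697 and 0.549), and by -0.02 in control cells without date 2. H2bc18 and H2bc22 were named after their values were seen.

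A further 27 probe sets carry several symbols with at least 1 histone among them, since their sequence is shared by near-identical genes. They are no members and were added to the fit after the data were seen. Of the 15 tested replication-dependent sets among them 5 were called lower in each genotype, 2 for H2B, 2 for H3 and 1 for H4, where 1.57% and 2.89% of all sets in that fit were called lower. The H4 set, shared by 13 H4 genes, read 2160, 6834 and 3069, then 800, 2464 and 820, in control cells, and 2524, 5074 and 3296, then 1274, 1325 and 1014, in knockout cells. Its change was -1.59 ± 0.32 (limma adjusted p = 0.0218) and -1.53 ± 0.32 (0.018). It was lower with treatment on each date in each genotype, although the control groups overlapped. The 2 called H3 sets changed by -2.05 ± 0.31 and -1.78 ± 0.31 in control and -1.38 ± 0.31 and -1.34 ± 0.31 in knockout cells, and the 2 called H2B sets by -2.04 ± 0.46 and -1.54 ± 0.30, and -1.74 ± 0.46 and -1.17 ± 0.30. Which of the near-identical genes gave these signals is uncertain.

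H3f3b is 1 of the 2 main genes for the variant H3.3, which replaces H3 outside DNA replication. Its probe set read 4122, 1553 and 5445 without and 261, 66.2 and 440 with treatment in control cells, and 3322, 2012 and 2096, then 410, 686 and 378, in knockout cells. Treated and untreated arrays did not overlap in either genotype. It fell by 3.94 ± 0.55 (limma adjusted p = 0.00446) and fell by 2.32 ± 0.55 (adjusted p = 0.0286). The call in control cells stood in 12 of 12 fits without 1 array, and that in knockout cells in 7, failing without any knockout array but treated replicate 2 (adjusted p at most 0.12). The difference of the 2 responses was 1.62 ± 0.77 (95% confidence interval -0.09 to 3.33, unadjusted p = 0.0611, adjusted p = 1).

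H3f3a, the other main H3.3 gene, read 435, 475 and 653, then 257, 419 and 164, in control cells and 408, 620 and 221, then 424, 315 and 158, in knockout cells. The groups overlapped in knockout cells and not in control cells. Its differences were -0.94 ± 0.38 (limma adjusted p = 0.193) and -0.45 ± 0.38 (adjusted p = 0.516). Another 5 probe sets are shared by H3f3a, H3f3b and related loci. None of the 5 was called, with log2 changes of -0.61 to 0.42 in control and 0.11 to 0.28 in knockout cells. On one of them the signals were 11952, 15247 and 12023, then 13820, 17223 and 13593, in control cells, and 10456, 12504 and 13789, then 13892, 13929 and 15173, in knockout cells. The H3f3b set and the shared sets thus gave different values for H3.3 messages, and which part of H3f3b the single set reads is not given in the files used here.

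**Figure D3:**
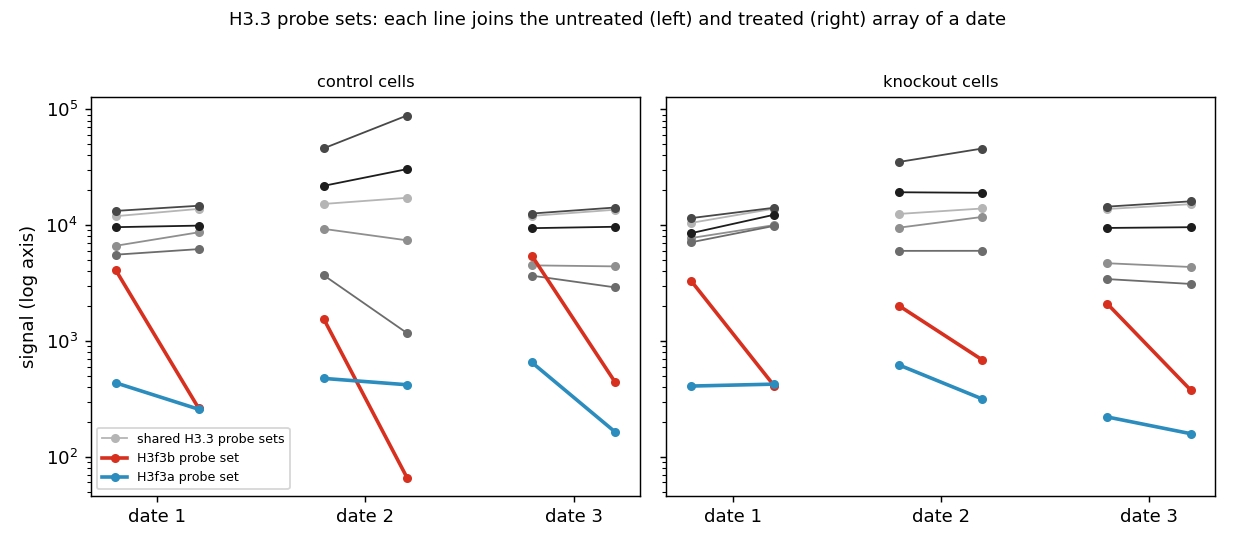
Signal (y axis, log axis) of the H3f3b probe set (red), the H3f3a probe set (blue) and 5 probe sets shared by H3.3 genes (grey) on the untreated and treated array of each date (x axis), in control and knockout cells. Slopes can be compared and heights between probe sets cannot. The H3f3b line goes down on all 3 dates in both panels, while the shared sets changed by -0.61 to 0.42 (log2) in control and 0.11 to 0.28 in knockout cells.

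H2ax encodes H2A.X, the variant phosphorylated at DNA breaks, and its message is known to end either with or without poly(A). It read 8162, 4376 and 8160, then 4227, 2102 and 4457, in control cells, and 8479, 7985 and 6919, then 5533, 4289 and 4560, in knockout cells. All 3 dates had the lower value with treatment in each genotype, and the groups were apart in knockout cells only. The differences were -0.96 ± 0.28 (limma adjusted p = 0.0792) and -0.70 ± 0.28 (adjusted p = 0.149). H1f10, a linker histone variant, was the member with the highest estimate. It read 229, 86.9 and 76.4, then 405, 168 and 123, in control cells, and 200, 101 and 85.2, then 232, 156 and 110, in knockout cells. It was higher with treatment on all 3 dates in both, by 0.75 ± 0.23 (adjusted p = 0.0887) and 0.36 ± 0.23 (adjusted p = 0.358), which did not pass the test.

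H2az1 and H2az2 encode H2A.Z, found at start sites of active genes. The brighter H2az1 set read 13739, 51015 and 12854, then 14187, 82057 and 12458, in control cells, and 12558, 45566 and 16206, then 15049, 37805 and 14066, in knockout cells. The arrays of date 2 were the high ones in all 4 groups. Its differences were 0.23 ± 0.28 (limma adjusted p = 0.70; -0.05 after quantile normalization) and -0.07 ± 0.28 (adjusted p = 0.912; 0.03 without date 2). The other H2az1 set, marked as cross-hybridizing, differed by 0.27 ± 0.33 (-0.07 without date 2) and 0.03 ± 0.33, and a confidence interval of its estimate in control cells reached from -0.47 to 1.01. For H2az2 the differences were -0.51 ± 0.31 and -0.70 ± 0.31 on the brighter set and -0.19 ± 0.28 and 0.24 ± 0.28 on the other (adjusted p of 0.196 or more). The 3 H2aj sets gave -0.44 to -0.04 in control and -0.76 to -0.05 in knockout cells, and 1 of them gave 0.24 and 0.53 without date 2. Of the variants that the symbol rule leaves out, Cenpa, Macroh2a1 and Macroh2a2, 5 probe sets were tested and 0 called in either genotype. Of all tested probe sets 1.54% and 2.89% were called lower and 3.16% and 5.77% higher. None of the 5 had an unadjusted p under 0.05, against 20.8% and 24.9% of all. With 5 sets these counts say little.

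Both comparisons of knockout with control cells ask whether loss of Stat5a and Stat5b moved histone messages. None of the 24 probe sets was called in limma without treatment, where 0.00936% of all tested probe sets were, or with treatment, where 0.0609% were. None of the 24 had an unadjusted p under 0.05, where 520 and 1807 of all 21363 did, so these counts say little about histones. Of the shared sets 0 were called. With treatment an H3 variant set, at 1.04 ± 0.42, and a dim H4 set, at 1.32 ± 0.58, had a limma unadjusted p of 0.0338 and 0.0453. Without treatment the log2 differences, knockout minus control, lay between -0.62 and 0.57, with class medians of 0.04 for replication-dependent and 0.01 for variant sets. With treatment they lay between -0.54 and 1.18, the highest being H3f3b, with medians of 0.19 and -0.04. The median 95% interval of a histone probe set, unadjusted for the number of tests, reached 0.69 to either side. Differences smaller than that would mostly go unseen, and larger ones could be missed too. For H3f3b with treatment the interval reached from -0.026 to 2.395. For H3c4 the difference was -0.32 (interval -1.02 to 0.37) without and 0.19 (-0.50 to 0.88) with treatment. The difference between the treatment responses was called for 0 of 24, as for 0% of all probe sets. An unadjusted p under 0.05 was found for 0 of 24 and for 549 of all 21363. This difference lay between -0.81 and 1.62, with a median interval of 0.98 to either side, and the comparisons share arrays.

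The counts of called histones depended on single arrays and on the date block, as did those over all tested probe sets. In control cells the count was 2 to 4 without any 1 of the 6 control arrays, and 5 to 7 without any knockout array. In knockout cells it was 2 without untreated replicate 1 or treated replicate 3, 3 without untreated replicate 2 or 3, 4 without treated replicate 2, and 6 to 8 without any other array. Without the date block 2 were called in each genotype, H3c4 and H3f3b in control cells (limma adjusted p = 0.00724 and 0.0133) and H3c4 and H2ac19 in knockout cells (0.0151 and 0.0339). Without date 2, on which the Actb and Gapdh ratios were high, 6 and 5 were called. H3c7 lost both calls, H2aw its call in control cells (limma adjusted p = 0.0874) and H1f2 its call in knockout cells (0.0545), while H2bc22 was called in control cells. When each comparison was fitted on its own 2 groups, 4 were called in each. Over all 21363 tested probe sets 1004 were called in control and 1849 in knockout cells. These counts were 264 to 898 in control cells without any 1 control array. In knockout cells they were 572 to 1230 without any 1 knockout array. They were 172 and 343 without the date block, 1418 and 1975 without date 2 and 215 and 949 in fits on 2 groups.

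Genes that act on histones or along with them were read from lists, with calls from the fit over all 12 arrays. Of the S phase genes, which copy DNA or supply its building blocks, 25 of 26 were tested on 52 probe sets, and 47 of the 52 had lower estimates with treatment in each genotype, against 50.8% and 49.2% of all tested probe sets. Of the 52, 2 were called lower in control and 3 in knockout cells, against 1.54% and 2.89% of all tested, and 0 higher, with medians of -0.63 and -0.45. Lig1, which seals new DNA strands, changed by -0.94 ± 0.21 (limma adjusted p = 0.0357) and -0.81 ± 0.21 (0.0417). Rrm2, a subunit of ribonucleotide reductase, fell by 1.26 ± 0.31 in control cells (adjusted p = 0.0479) on 1 of 3 probe sets. In knockout cells Gins1, a part of the replicative helicase, fell by 1.23 ± 0.28 (adjusted p = 0.0252), and Cdc6, which loads that helicase, by 0.98 ± 0.25 (0.0373). The second Gins1 set gave -0.61 there and no call. In the other genotype these sets had estimates of the same direction without a call. They were -1.03 ± 0.31 for Rrm2 in knockout cells (limma adjusted p = 0.0659), and -0.965 ± 0.28 for Gins1 and -0.755 ± 0.25 for Cdc6 in control cells (0.0783 and 0.114).

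Histone chaperones and deposition factors were tested for 24 of 27 genes on 60 probe sets, with medians of -0.17 and -0.16. In control cells 1 set of the 60 was called lower and 0 higher, where 1.54% of all tested sets were called lower, so the count is near that share. It was a set of Nasp, a chaperone of H3 and H4, at -2.26 ± 0.37 (limma adjusted p = 0.00909), while the other 3 Nasp sets gave -1.29 to -0.89 and no call. The called Nasp set gave -1.16 ± 0.37 in knockout cells (adjusted p = 0.0815). In knockout cells 5 sets were called lower (2.89% of all tested) and 0 higher, 1 each of Anp32e (-1.09 ± 0.24), Asf1b (-1.11 ± 0.26), Mcm2 (-1.04 ± 0.26), Nap1l1 (-1.05 ± 0.26) and Asf1a (-1.10 ± 0.28). Anp32e removes H2A.Z, Asf1a and Asf1b carry H3 and H4, and Mcm2 is a helicase subunit that also holds H3 and H4. Other sets of Nap1l1, a carrier of H2A and H2B, lay between -0.23 and -0.01, and its call is that of 1 of 7 sets. Second sets of Anp32e, Mcm2 and Asf1a gave -0.16, -0.76 and -0.003 and no call. In control cells the 5 sets called in knockout cells gave -0.99 (Asf1b), -0.97 (Mcm2), -0.89 (Asf1a), -0.33 (Nap1l1) and -0.17 (Anp32e). None of these was called (limma adjusted p of 0.0583 or more). For histone mRNA processing all 16 genes were tested on 28 sets, with 0 called and 5 at an unadjusted p under 0.05 in each genotype, where 20.8% and 24.9% of all tested sets had such a p (medians -0.15 and -0.29). Slbp, the stem-loop binding protein, differed by -1.04 ± 0.32 and -0.53 ± 0.23 on its 2 sets in control cells (adjusted p = 0.0977 and 0.228) and by 0.10 ± 0.33 and -0.44 ± 0.23 in knockout cells.

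**Figure D4:**
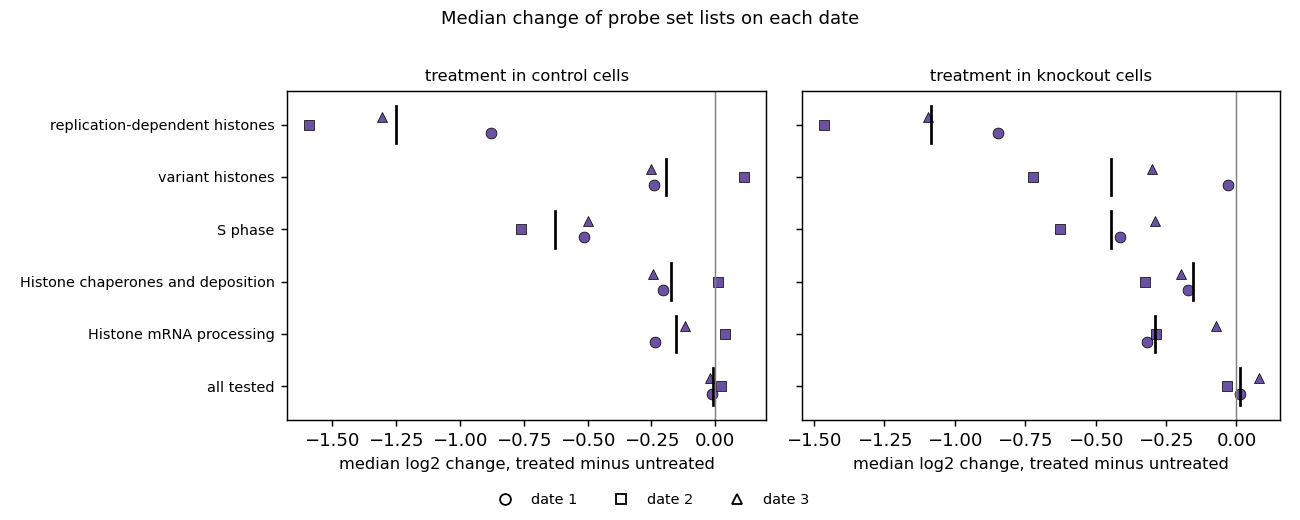
Median log2 change with treatment (x axis) over the tested probe sets of each class or list (y axis) on dates 1, 2 and 3 (circle, square, triangle) and in the fit over all dates (bar), in control and knockout cells. Of the 6 rows drawn, replication-dependent histones lie lowest, at -1.25 and -1.09 in the fit, and all tested probe sets lie near 0, at -0.01 and 0.01.

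Some markers of other cells moved with treatment. The summed signal of the T and NK list was 7720 to 8620 in control untreated, 1510 to 4710 in control treated, 8020 to 9660 in knockout untreated and 1190 to 5610 in knockout treated cells. Nearly all of it came from Nkg7, the 1 gene of 3 that passed, since the T cell genes Cd3e and Cd3g had median signals of 14.8 and 4.95. The B lineage sum, with 2 of 3 genes on the array passing, was 462 to 698, 276 to 350, 596 to 974 and 303 to 632 in the same order. Most of it came from Cd79b, with a median signal of 472, against 34.2 for Cd79a and 39.9 for Pax5. The mast cell and basophil sum (3 of 3) was 5330 to 8860, 3120 to 6320, 4380 to 6710 and 2730 to 6050, and the progenitor sum (6 of 6) 50800 to 104000, 46800 to 153000, 48700 to 122000 and 47100 to 96100. The progenitor sum came mostly from Mpo, Prtn3 and Elane, with median signals of 19396, 13510 and 8995. It says little about Kit and Cd34, which ranged from 623 to 5457 and from 491 to 8313 over the 12 arrays. Erythroid genes added 136 to 343, with Hba-a1 and Alas2 dim. Megakaryocyte, monocyte, dendritic and stroma sums, at 910 to 4560, 6970 to 41300, 490 to 2310 and 125 to 423, overlapped between treated and untreated arrays in both genotypes. The part of cell makeup in the histone values was not tested. How well the labelling recovered messages without poly(A) was not tested either.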

How the data were processed

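Total RNA was hybridized to 12 single-color Affymetrix mouse arrays by the manufacturer's protocol, per the labels. The authors deposited MAS5 intensity values on a linear scale, per the submitters' processing notes, with no version or genome build named. Each array of deposited intensity values has a mean of 500.0 after trimming 2% at either end. Mismatch probes are subtracted in MAS5, so low signals are noisy, and precision is limited by the 3 arrays a group.

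Probe sets were named by the platform annotation. Those with 1 symbol and more than 70.5495 on at least 3 of 12 arrays (21363) were tested on log2(intensity + 13) with limma 3.58.1 in R 4.3.3, with 4 groups and array date as a block (6 residual and 4.21 prior degrees of freedom). p-values were Benjamini-Hochberg adjusted over all of them, with a threshold of 0.05. Members, classes and lists were chosen with earlier results of these data known. Dates came from the titles. Deviations from group means correlated at 0.367 to 0.75 for 18 pairs of arrays of 1 date and at -0.68 to 0.435 for 36 pairs of different dates. Named were all called members, main variants, the brightest replication-dependent set of each family and called list genes of the first comparison, and other names were added after seeing values. The scripts were tested on simulated data. Alternatives covered pseudocount, filter, scaling, block, date, probe set choice and left-out arrays. Figures used matplotlib 3.10.9 in Python 3.11.15.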

Additional observations from a re-analysis of the deposited data

Results flagged for a closer look

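A probe set of H2ac19, an H2A gene, had higher signals in knockout than in control cells on all 3 dates without treatment (log2 differences of 0.12, 0.86 and 0.72) and lower ones on all 3 with treatment (-0.09, -0.20 and -0.42). The difference between these was -0.81 ± 0.44 (SE, limma unadjusted p = 0.095, adjusted p = 1), which did not pass. The other H2ac19 probe set gave 0.29 ± 0.43.

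The H2aw probe set called in control cells was lower in knockout than in control cells on all 3 dates without treatment (-0.004, -0.16 and -0.62) and higher on all 3 with it (0.29, 0.42 and 0.02). One date in each run was close to no difference. The difference was 0.51 ± 0.47 on the log2 scale (value 0.505, limma unadjusted p = 0.304, adjusted p = 1), which did not pass either. For the other H2aw probe set it was 0.41 ± 0.47.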

How the results depend on the processing

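The counts of called histones, 7 in each genotype after treatment, were 2 and 2 without the date (replicate) block, 4 and 4 with no filter on low values and 4 and 4 with only the compared groups fitted. Without 1 array they ranged from 2 to 7 in control and from 2 to 8 in knockout cells. Over all tested probe sets the 1004 and 1849 calls became 172 and 343 without the block and 548 and 1045 with no filter. With only the compared groups fitted they became 215 and 949, and they ranged from 264 to 1219 and from 572 to 2550 without 1 array. In the 3 other comparisons 0 were called under every alternative run. The replication-dependent minus variant difference of medians was -1.06 in control cells, with -1.30 to -0.70 without 1 array. In knockout cells it was -0.64, against -0.75 without date 2, -0.56 with a constant of 50, -0.56 with no filter, -0.70 after quantile normalization, -0.59 with 1 probe set per gene, -0.77 with H2ax in the other class, -0.83 without H3f3b (an alternative chosen after seeing the data) and -0.85 to -0.60 without 1 array. Without 1 array this difference was -0.26 to 0.11 for knockout against control without treatment, -0.01 to 0.62 with treatment and 0.054 to 0.664 for the difference of responses. Of the 24 tested members, H2az1, H2az2, H2bc18 and H2aj changed sign under an alternative, in fits where none of them was called. In control cells H2az1 gave -0.052 after quantile normalization on the brighter set and -0.065 without date 2 on the other, H2bc18 gave -0.019 and an H2aj set 0.236 without date 2. In knockout cells the brighter H2az1 set gave 0.028 and this H2aj set 0.525 without date 2. Without 1 array the brighter H2az1 set ranged from -0.091 to 0.45 and the other from -0.156 to 0.512 in control cells, and from -0.219 to 0.163 and from -0.136 to 0.292 in knockout cells, where the dimmer H2az2 set ranged from -0.008 to 0.484. The 3 H2aj sets ranged from -0.413 to 0.209, from -0.859 to 0.015 and from -0.473 to 0.416 in control cells, and the last from -0.592 to 0.611 in knockout cells. Calls were also gained. H2ax passed in control cells with an intensity trend in the prior (limma adjusted p = 0.0382), H2bc22 there without date 2 (0.0276) and after quantile normalization (0.0245), the second H2aw set there with a constant of 50, a filter on 6 arrays or the trend (0.0389, 0.0484 and 0.0406), and the brighter H1f2 set in knockout cells with a constant of 50, the trend or without control treated replicate 2 (0.0481, 0.0372 and 0.0439). The cause was not tested. With 3 arrays a group, the median confidence interval of a histone probe set, unadjusted for the number of tests, reached 0.69 (log2) to either side. For the difference of responses it reached 0.98. These are medians and not limits, since the intervals of single probe sets were narrower or wider. Differences smaller than the median would mostly go unseen, and larger ones could be missed too.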

Other observations

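Some histone probe sets separated the arrays by date and not by group, which was noticed after their values were seen. One H2aj set read 77.3 to 135 on the 4 arrays of date 2 and 331 to 1315 on the other 8, while another read 983 to 3413 on date 2 and 192 to 607 on the others. H2aj encodes a replication-independent H2A, and its sets thus moved in opposite directions on date 2. Among the shared replication-dependent sets, 1 H2B set had higher estimates, 0.75 ± 0.41 in control cells (limma adjusted p = 0.338) and 0.64 ± 0.41 in knockout cells (adjusted p = 0.38). So did 1 H2A set, at 0.24 ± 0.38 and 0.66 ± 0.38 (adjusted p = 0.765 and 0.318), and in knockout cells 2 H3 sets, each at 0.17. None passed.

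Of 15 probe sets of 12 immediate early genes 2 rose and 5 fell in control cells and 2 rose and 4 fell in knockout cells in limma. Of all tested probe sets 3.16% were called higher and 1.54% lower in control cells, and 5.77% and 2.89% in knockout cells. Log2 changes in control cells were -5.30 ± 0.48 for Fosb, -3.39 ± 0.45 for Fos, -2.76 ± 0.44 for Jun, 1.40 ± 0.23 for Ier3 and 1.32 ± 0.30 for Egr2. Of 9 neutrophil granule probe sets 0 were called in either genotype. An unadjusted p under 0.05 was found for 1 and 0 of the 9, against 20.8% and 24.9% of all tested probe sets.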
